A study of Mus musculus with 8 samples.

Results

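The 76 mitochondrial ribosomal protein genes described here were the rows of a table of 12256 mouse genes whose symbol begins with Mrps or Mrpl followed by a digit. By symbol, 29 belonged to the small subunit (Mrps) and 47 to the large subunit (Mrpl) of the mitochondrial ribosome. Of the 76, 73 were annotated as protein-coding and 3 as processed pseudogenes, namely Mrps36-ps1, Mrpl23-ps1 and Mrpl48-ps. Their RNA was measured by RNA-seq in 8 libraries of dendritic cells derived from monocytes and taken from the inflamed central nervous system. The NPC group (libraries A to D) came from mice given 1000000 neural precursor cells (NPCs) in 10 µL of PBS by intrathecal injection, and the PBS group (libraries 1 to 4) from mice given 10 µL of PBS by the same route. In both groups the animals were C57Bl/6 mice with experimental autoimmune encephalomyelitis, raised by immunization with the myelin peptide MOG35-55, and were injected when disease peaked, which was 2 to 4 days from its clinical onset. On day 7 after the injection, hindbrain and spinal cord were taken and cells sorted as CD45-high, CD11b+, Ly6G-, Ly6C+, CD11c-intermediate and MHC class II+ cells, and each library held the pooled cells of 4 to 7 mice.

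Mitochondria carry a ribosome of their own. It translates the few proteins that the mitochondrial genome encodes, all of them subunits of the respiratory chain and ATP synthase, and its 2 ribosomal RNAs, mt-Rnr1 of the small and mt-Rnr2 of the large subunit, are transcribed from that same genome. All of its proteins are encoded in the nucleus, made in the cytosol and imported, so that a working ribosome needs products of both genomes. Many of these proteins have a counterpart in the bacterial ribosome, and the others exist only in mitochondria. In myeloid cells, including dendritic cells, the balance between respiration and glycolysis is known to change with activation.

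Values are the authors' log2 normalised expression, which is not divided by gene length. A log2 fold change is the mean of the 4 NPC libraries minus the mean of the 4 PBS libraries, so that a negative value means lower in NPC libraries, and the level of a gene in 1 library carries counting error as well. The reads behind the libraries numbered 2653818 to 7003542 in the NPC group and 7702189 to 21068166 in the PBS group, so depth and treatment cannot be told apart. The 76 genes had 3 to 815 reads in a library, and 10 of them fell under 10 reads in at least 1 library. The 5 transcripts of the proteins that defined the sort (Ptprc, Itgam, Ly6c2, Itgax and H2-Ab1) summed to 5904 to 8240 linear normalised units in NPC libraries and 5988 to 7440 in PBS libraries. Mitochondrially encoded transcripts made up 25.2 to 33.9% of the reads in NPC libraries, against 33.8 to 34.8% in PBS 1, PBS 2 and PBS 4 and 18.6% in PBS 3.

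Start-site regions of 6 of the genes are shown first, to set the genes described below beside their sequence: Mrpl41, Mrpl27, Mrps7 and Mrps18a are 4 of the 7 whose libraries did not overlap between the groups, and Mrps18b and Mrps18c are the close relatives of Mrps18a. Each runs 5′ to 3′ on the strand of the gene, from 250 bases before to 50 after the start of a RefSeq transcript on GRCm38.p6. Capitals mark the motifs of 3 factors known for nuclear genes of mitochondria, searched on both strands: NRF1 (GCATGCGC or GCGCATGC), GABP and other ETS factors (CCGGAAG or CTTCCGG) and YY1 (AAGATGG or CCATCTT). The Mrpl41 region, at chr2:24975049-24975348 on the minus strand, held none of the 3 motifs.
Mrpl41: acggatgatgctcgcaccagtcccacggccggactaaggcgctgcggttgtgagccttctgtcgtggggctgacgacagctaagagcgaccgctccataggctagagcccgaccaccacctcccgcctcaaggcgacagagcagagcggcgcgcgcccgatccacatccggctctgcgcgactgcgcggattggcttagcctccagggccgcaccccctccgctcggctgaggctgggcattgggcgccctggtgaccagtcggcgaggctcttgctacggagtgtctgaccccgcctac
The Mrpl27 region, at chr11:94653541-94653840 on the plus strand, held an ETS motif whose first base lies at -55, counted from the start at 1.
Mrpl27: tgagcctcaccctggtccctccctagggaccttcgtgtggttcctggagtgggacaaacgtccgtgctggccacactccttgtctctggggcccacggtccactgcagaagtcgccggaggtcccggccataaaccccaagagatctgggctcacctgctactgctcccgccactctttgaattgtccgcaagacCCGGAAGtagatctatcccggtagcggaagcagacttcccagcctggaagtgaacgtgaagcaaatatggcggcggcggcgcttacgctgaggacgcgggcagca
The Mrps7 region, at chr11:115603890-115604189 on the plus strand, held a YY1 motif at 19.
Mrps7: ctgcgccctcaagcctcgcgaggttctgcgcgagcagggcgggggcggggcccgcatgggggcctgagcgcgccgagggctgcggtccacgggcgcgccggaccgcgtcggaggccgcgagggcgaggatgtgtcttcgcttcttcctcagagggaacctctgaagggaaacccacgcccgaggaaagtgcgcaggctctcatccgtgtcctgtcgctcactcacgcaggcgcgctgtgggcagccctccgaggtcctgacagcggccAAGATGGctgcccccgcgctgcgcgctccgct
The Mrps18a region, at chr17:46110754-46111053 on the plus strand, held an ETS motif at -26 and a YY1 motif at 12.
Mrps18a: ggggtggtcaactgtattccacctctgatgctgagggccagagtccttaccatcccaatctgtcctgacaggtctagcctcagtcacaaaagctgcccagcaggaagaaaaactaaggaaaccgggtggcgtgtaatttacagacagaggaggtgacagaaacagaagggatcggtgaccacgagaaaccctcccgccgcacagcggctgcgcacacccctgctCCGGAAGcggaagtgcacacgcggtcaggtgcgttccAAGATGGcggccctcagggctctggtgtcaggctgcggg
The Mrps18b region, at chr17:35916391-35916690 on the minus strand, held NRF1 motifs at -223 and 29 and an ETS motif at 44.
Mrps18b: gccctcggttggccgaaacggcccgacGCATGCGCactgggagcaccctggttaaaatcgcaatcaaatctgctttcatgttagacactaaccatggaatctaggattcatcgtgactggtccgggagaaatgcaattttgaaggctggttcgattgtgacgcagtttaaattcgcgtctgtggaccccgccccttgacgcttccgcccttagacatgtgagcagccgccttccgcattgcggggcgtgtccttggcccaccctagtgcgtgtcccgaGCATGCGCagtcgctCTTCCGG
The Mrps18c region, at chr5:100798509-100798808 on the plus strand, held an ETS motif at -156.
Mrps18c: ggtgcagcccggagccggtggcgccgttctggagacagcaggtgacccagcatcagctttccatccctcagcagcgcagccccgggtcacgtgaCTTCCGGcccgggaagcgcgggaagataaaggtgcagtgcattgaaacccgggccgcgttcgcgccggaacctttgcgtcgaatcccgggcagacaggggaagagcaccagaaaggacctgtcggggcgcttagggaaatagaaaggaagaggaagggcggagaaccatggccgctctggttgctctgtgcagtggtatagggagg

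Of the 76 genes, 65 had an entry in the RefSeq promoter table, with 71 such windows in all. An ETS motif was in 32.4% of these windows, against 18.1% of the 10728 windows of the genes in the expression table and 8.86% of all 32851 windows searched. Windows on 1 chromosome, which carries none of the 76 genes, were left out of these counts. A YY1 motif was in 18.3%, against 7.55% and 6.34%, and an NRF1 motif in 11.3%, against 5.41% and 2.71%. The letters of the YY1 motif contain ATG and can therefore also mark a start codon. Either way, 49.3% of the mitoribosomal windows held at least 1 of the 3 motifs, against 27.9% of the windows of genes in the expression table. A match describes letters in a window and not a bound factor. The median log2 fold change between the groups was -0.15 for the 23 genes with an ETS motif and -0.15 for those without, -0.20 with and -0.15 without a YY1 motif, and -0.06 with and -0.15 without an NRF1 motif.

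Whether treatment with NPCs altered the transcripts of the mitochondrial ribosome was asked gene by gene. None of the 76 passed the threshold: by limma, with p-values adjusted after Benjamini and Hochberg over all 12256 genes, 0 of the 76 and 0.0% of all genes had one under 0.05, and the smallest adjusted p among the 76 was 0.382. The values nevertheless leaned to one side. The log2 fold change was below 0 for 57 of the 76 (75%), against 47.5% of all genes tested, and above 0 for 19. The median was -0.15, against 0.02 over all genes. At an unadjusted p under 0.05 there were 13, all lower in NPC libraries, where 5.32% of all genes were lower and 6.0% higher at that level. In 7 of the 76 every NPC library lay below every PBS library, and in 0 every NPC library lay above, against 3.25% and 3.53% of all genes. Differences were small and ran from -0.62 to 0.34. The 95% interval lay within a 2-fold change in either direction for 70 of the 76, and for 9691 of all 12256 genes. In sorted bulk RNA, fewer cells of a type and less RNA per cell cannot be told apart.

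**Figure D1:**
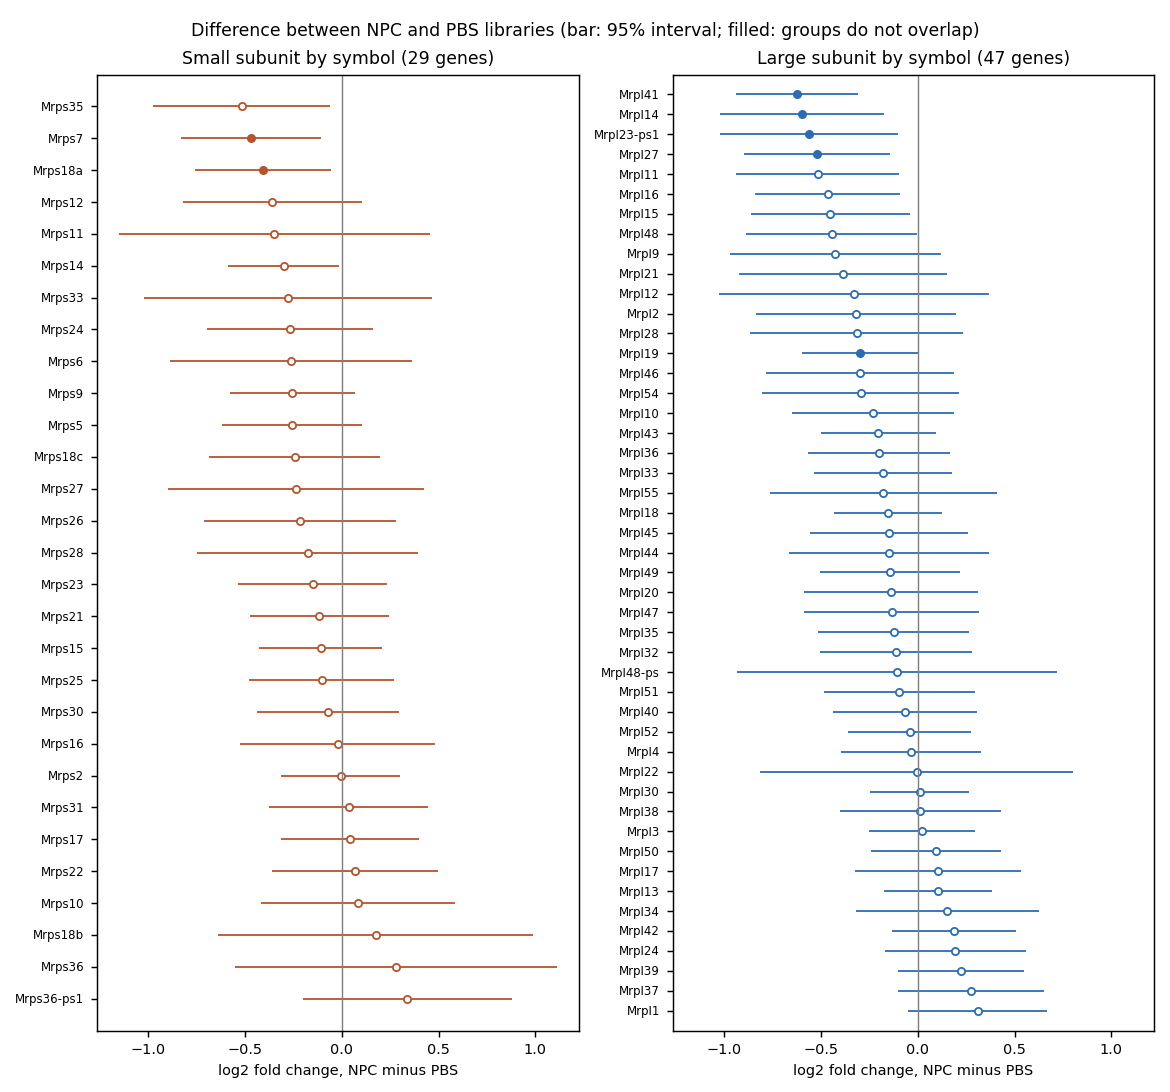
The log2 fold change (NPC minus PBS) of each of the 76 genes, with its 95% interval from limma, for the small subunit on the left and the large subunit on the right; filled points mark the 7 genes whose groups do not overlap. Most points lie left of 0 in both panels, and most intervals cross 0.

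The small and large subunits differed little from one another. Of the 29 small-subunit genes 22 were lower in NPC libraries and 7 higher, the median log2 fold change being -0.18, and 4 had an unadjusted p under 0.05. Of the 47 large-subunit genes 35 were lower and 12 higher, with a median of -0.15, and 9 had an unadjusted p under 0.05. Over all genes, 5.32% were lower and 6.0% higher at that level. The mean level over the small-subunit genes was 2.92 ± 0.08 in NPC libraries and 3.06 ± 0.07 in PBS libraries, and over the large-subunit genes 3.42 ± 0.09 in NPC libraries and 3.58 ± 0.10 in PBS libraries (log2 normalised expression, SD, n = 4 each). The level of 1 subunit against the other can be followed within a library, as the median deviation of the small-subunit genes from their own means over all 8 libraries minus that of the large-subunit genes. This difference was -0.02, -0.04, -0.05 and -0.07 in NPC A to D, against 0.01, -0.06, 0.10 and -0.03 in PBS 1 to 4. The NPC values lie inside the range of the PBS values apart from that of NPC D, which is just below it. Length-corrected levels were alike too, with a median log2 value per kilobase of transcript of 2.80 for the small and 2.73 for the large subunit, against 2.51 for all genes of the table.

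Symbols do not always give the place of a protein in the ribosome. Structures of the mammalian particle put the proteins of Mrps18a and Mrps30 in the large subunit, and the product of Mrps36 is now regarded as a subunit of the 2-oxoglutarate dehydrogenase complex. With the 73 protein-coding genes sorted by place, 20 of 25 small-subunit genes were lower in NPC libraries (median -0.22) and 35 of 47 large-subunit genes (median -0.15). Sorted by origin, 36 of the 46 genes with a bacterial homologue were lower (median -0.19), and 19 of the 27 classed as mitochondria-specific (median -0.14). These 27 include Mrps36, which was placed in neither subunit. Differences between these classes were not tested.

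In the large subunit, the lowest unadjusted p belonged to Mrpl41, which encodes a protein with no bacterial counterpart. The gene lies at 24974117 to 24975098 on chromosome 2, on the minus strand (GRCm38, GENCODE vM21). Its log2 normalised expression was 3.20, 3.003, 3.22 and 3.22 in NPC A to D, against 3.89, 3.69, 3.74 and 3.82 in PBS 1 to 4. All 4 NPC libraries lay below all 4 PBS libraries, with a gap wider than the range within either group. The log2 fold change was -0.62 ± 0.15 (SE), and its adjusted p by limma was 0.382.

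Mrpl14 encodes a protein that in bacteria lies at the interface with the small subunit. Its level was 2.91, 2.50, 2.71 and 2.47 in NPC A to D, against 3.45, 3.51, 3.003 and 3.004 in PBS 1 to 4. The groups did not overlap, although NPC A and the lower 2 PBS libraries were close (log2 fold change -0.60 ± 0.20 (SE, as in all that follow), adjusted p 0.390 by limma). Mrpl27 encodes the counterpart of a bacterial protein that reaches towards the peptidyl-transferase centre, where peptide bonds form. It was at 3.45, 3.32, 2.83 and 3.29 in NPC A to D, against 3.95, 3.68, 3.71 and 3.62 in PBS 1 to 4. Again no NPC library reached a PBS library (log2 fold change -0.52 ± 0.17, adjusted p 0.390 by limma). Part of its exons overlap those of Eme1, and without the strand setting of the counting the reads of such a pair cannot be told apart.

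Mrpl16 and Mrpl11 encode proteins near the tRNA-binding cleft and at the base of the factor-binding stalk, as known from bacteria. Mrpl16 was at 4.57, 4.47, 3.97 and 3.87 in NPC A to D, against 4.83, 4.77, 4.63 and 4.52 in PBS 1 to 4. Mrpl11 was at 4.05, 3.84, 3.26 and 3.53 in NPC A to D, against 4.54, 4.18, 3.96 and 4.08 in PBS 1 to 4. In both genes NPC C and NPC D were the lowest libraries, and NPC A reached into the PBS range. Their log2 fold changes were -0.47 and -0.52, each with an adjusted p of 0.396 by limma. The pseudogene Mrpl23-ps1 was at 2.76, 2.04, 2.11 and 2.69 in NPC A to D, against 2.87, 2.98, 2.98 and 3.004 in PBS 1 to 4, with 10 reads in the library where it was scarcest. The groups did not overlap, but reads of a processed pseudogene can stem from its parent gene. That gene, Mrpl23, had no values under its symbol, so the value of the pseudogene is uncertain. The seventh gene without overlap, Mrpl19, was chosen after its values were seen. It was at 3.74, 3.62, 3.90 and 3.88 in NPC A to D, against 4.04, 4.19, 4.15 and 3.97 in PBS 1 to 4 (log2 fold change -0.30 ± 0.14).

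Mrpl12 encodes the stalk protein that recruits translation factors and is also known to bind the mitochondrial RNA polymerase. Its level was 1.37, 2.04, 1.68 and 1.14 in NPC A to D, against 2.52, 1.31, 1.51 and 2.20 in PBS 1 to 4. The groups overlapped widely, at 10 to 90 reads per library, and the 95% interval of the log2 fold change ran from -1.03 to 0.37. Other large-subunit genes had higher values in NPC libraries. Mrpl37, a mitochondria-specific component, was at 4.36, 3.80, 4.02 and 4.23 in NPC A to D, against 4.09, 3.93, 3.79 and 3.50 in PBS 1 to 4. Mrpl1, whose bacterial counterpart forms the mobile stalk at the tRNA exit site, was at 4.01, 3.75, 3.90 and 3.66 in NPC A to D, against 3.88, 3.47, 3.35 and 3.39 in PBS 1 to 4. In both genes 1 PBS library or more lay inside the NPC range, and neither difference (0.27 and 0.31) reached an unadjusted p under 0.05.

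**Figure D2:**
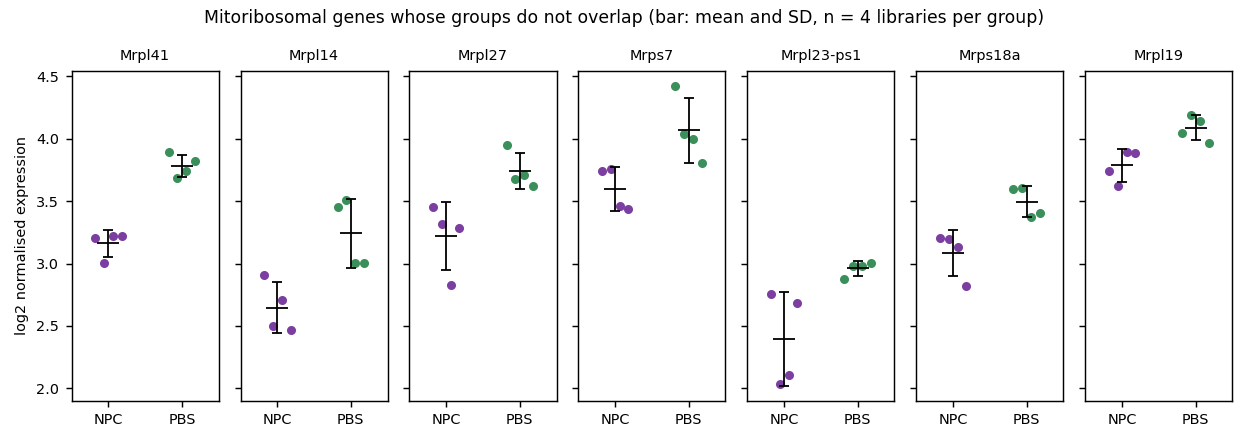
Log2 normalised expression of the 7 mitoribosomal genes whose groups did not overlap, 1 point per library, with the mean and SD of 4 libraries per group. In Mrpl41 the NPC libraries sit between 3.003 and 3.22 and the PBS libraries between 3.69 and 3.89; the gap is narrower in the others.

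In the small subunit, Mrps7 had the lowest unadjusted p. Its protein binds the ribosomal RNA in the head of the small subunit, as its bacterial counterpart does. Mrps7 was at 3.74, 3.75, 3.46 and 3.44 in NPC A to D, against 4.43, 4.04, 4.00 and 3.81 in PBS 1 to 4. The groups did not overlap, though NPC B and PBS 4 were close (log2 fold change -0.47 ± 0.17, adjusted p 0.390 by limma). Its exons overlap those of Gga3 and Mif4gd. Mrps35, a mitochondria-specific component, was at 3.80, 3.32, 3.18 and 2.79 in NPC A to D, against 3.91, 3.84, 3.91 and 3.49 in PBS 1 to 4, and NPC A lay above PBS 4 (log2 fold change -0.52 ± 0.21, adjusted p 0.407 by limma). Mrps14, another protein with a bacterial counterpart, was among the more abundant transcripts of this subunit. It was at 5.05, 5.22, 4.98 and 4.74 in NPC A to D, against 5.33, 5.38, 5.13 and 5.36 in PBS 1 to 4, and NPC B exceeded PBS 3 (log2 fold change -0.30 ± 0.13).

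Mrps12 encodes the protein at the decoding centre, where codon and anticodon are matched. It averaged 2.25 ± 0.30 in NPC libraries and 2.61 ± 0.17 in PBS libraries, and Mrps9, a protein of the small-subunit head, 3.60 ± 0.17 in NPC libraries and 3.86 ± 0.11 in PBS libraries (SD, n = 4 each). Neither had an unadjusted p under 0.05. The 2 largest values in the other direction were those of Mrps36-ps1 and Mrps36, with log2 fold changes of 0.34 and 0.28. Mrps36 was scarce, with 3 to 21 reads per library: it was at 0.43, 0.45, 0.61 and 1.49 in NPC A to D, against 0.45, 0.14, 0.18 and 1.11 in PBS 1 to 4. NPC D and PBS 4 were both high. Gene and pseudogene can share reads, so both values are uncertain.

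The 3 paralogues that derive from the bacterial S18 protein take different places in the ribosome, Mrps18a in the large subunit and Mrps18b and Mrps18c in the small subunit. Mrps18a was at 3.20, 3.20, 3.13 and 2.82 in NPC A to D, against 3.60, 3.61, 3.38 and 3.40 in PBS 1 to 4. No NPC library reached a PBS library (log2 fold change -0.41 ± 0.16, adjusted p 0.399 by limma). Mrps18c was at 4.60, 4.92, 4.12 and 3.87 in NPC A to D, against 4.49, 4.71, 4.54 and 4.75 in PBS 1 to 4. Its NPC libraries lay on both sides of the PBS range (log2 fold change -0.24 ± 0.20). Mrps18b was at 0.68, 0.82, -0.04 and 0.36 in NPC A to D, against 0.80, 0.07, 0.03 and 0.22 in PBS 1 to 4, with 3 to 27 reads per library, which leaves a 95% interval of -0.64 to 0.99 for its log2 fold change of 0.17. The differences among the paralogues were not tested. Mrps30, which like Mrps18a belongs to the large subunit despite its symbol, was at 2.95, 3.37, 3.08 and 3.40 in NPC A to D, against 3.38, 3.24, 3.11 and 3.36 in PBS 1 to 4, and the groups overlapped.

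Levels per kilobase of transcript differed among the 76 genes far more than between the groups. On that log2 scale the highest were Mrpl33 at 6.14 and Mrpl52 at 5.78 in the large subunit and Mrps21 at 4.95 and Mrps18c at 4.79 in the small subunit. The lowest was Mrpl47 at 0.69 in the large subunit and Mrps26 at 0.23 in the small subunit, where Mrps18b was at 0.26. These values depend on which annotated transcript gives the length. Between the groups, the log2 fold changes of the 4 abundant genes were -0.18 for Mrpl33, -0.04 for Mrpl52, -0.12 for Mrps21 and -0.24 for Mrps18c. Those of the scarce Mrpl47 and Mrps26 were -0.13 and -0.22. The 25 genes with a level above the median of the table had a median log2 fold change of -0.12, and the 51 others -0.15.

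The difference was not spread evenly over the libraries. As the median deviation of the 76 genes from their own means over all 8 libraries, the NPC libraries A to D lay at 0.00, -0.05, -0.06 and -0.22, against 0.15, 0.11, -0.02 and 0.03 in PBS 1 to 4. NPC D was lowest and PBS 1 and PBS 2 highest, while NPC A and PBS 3 lay between, with PBS 3 below NPC A. NPC D was the lowest library for 24 of the 76 genes (31.6%), against 16.4% of all genes, and PBS 1 the highest for 22 (28.9%), against 16.1% of all genes. NPC D was the deepest NPC library and PBS 1 the second deepest of all. The subunits showed the same order at their ends, with -0.26 for the small and -0.19 for the large subunit in NPC D, and 0.15 and 0.14 in PBS 1. Without NPC D the median log2 fold changes were -0.12 and -0.13, and 8 genes had an unadjusted p under 0.05, beside 1067 of all 12256 genes. Without PBS 1 there were 6, beside 1079 of all genes, and without NPC C 6, beside 1172. Without PBS 2 there were 7, beside 792.

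**Figure D3:**
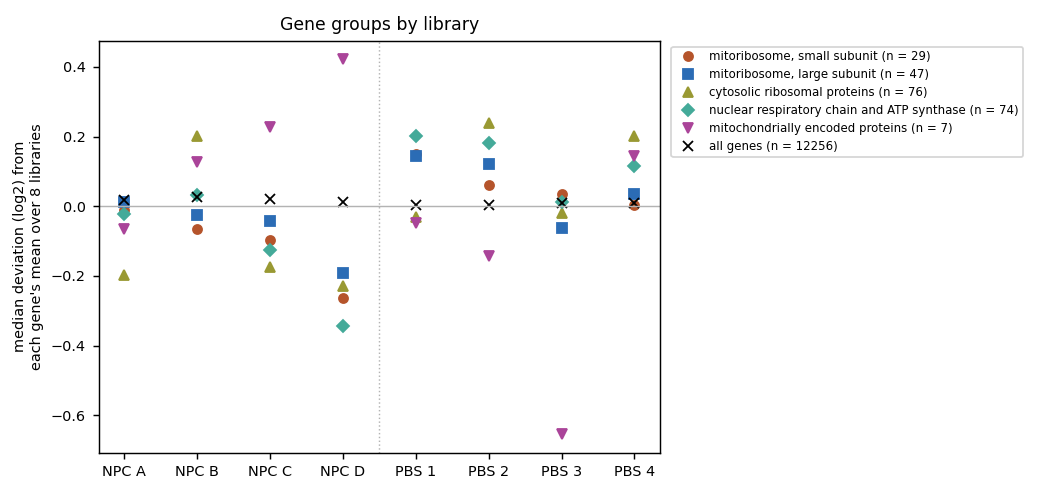
Median deviation (log2) of 5 gene groups and of all genes from each gene's mean over the 8 libraries, 1 mark per library and group, NPC libraries left of PBS libraries. Both subunits of the mitoribosome are lowest in NPC D and highest in PBS 1, and the mitochondrially encoded protein genes have their highest mark in NPC D and their lowest in PBS 3.

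The mitoribosome stood beside other gene groups with a similar lean. Of 76 proteins of the cytosolic ribosome 64 were lower in NPC libraries, and the median log2 fold change was -0.21. Among them 15 had an unadjusted p under 0.05, all with lower values in NPC libraries. Of 74 nuclear genes of the respiratory chain and ATP synthase, the enzymes that hold the products of the mitochondrial ribosome, 67 were lower with a median of -0.22, and 25 had an unadjusted p under 0.05, all lower. At that unadjusted level 13 of the 76 mitoribosomal genes were lower, beside 5.32% of all genes lower and 6.0% higher. None of the cytosolic ribosomal or respiratory chain genes passed the adjusted threshold. All these groups come from the same 8 libraries, and NPC D had the lowest median deviation in each. The other libraries did not keep 1 order. The cytosolic ribosomal genes lay at 0.20 in NPC B and -0.20 in NPC A, where the mitoribosomal genes lay at -0.05 and 0.00, and at -0.03 in PBS 1, where the mitoribosomal genes lay at 0.15. The respiratory chain genes were highest in PBS 1, as the mitoribosomal genes were. Differences between these groups and the mitoribosomal genes were not tested.

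Transcripts of the mitochondrial genome had values on the other side. All 7 measured mitochondrially encoded protein genes were higher in NPC libraries, with log2 fold changes from 0.07 to 0.42 and a median of 0.40, and 0 of the 7 had an unadjusted p under 0.05 in limma's test. PBS 3 was the lowest library for all 7. Without it the median difference was 0.23, and mt-Nd6, a subunit of complex I, was at -0.20. Without NPC D mt-Nd6 was at -0.03 and the median at 0.31. mt-Co1, a subunit of cytochrome c oxidase, was at 12.95, 13.08, 13.47 and 13.32 in NPC A to D, against 12.66, 12.96, 12.36 and 13.17 in PBS 1 to 4. The ribosomal RNA mt-Rnr1 was at 16.31, 16.39, 16.43 and 16.62 in NPC A to D, against 16.52, 16.44, 15.89 and 16.46 in PBS 1 to 4. The ribosomal RNA mt-Rnr2 was at 17.80, 17.91, 16.91 and 17.60 in NPC A to D, against 17.86, 17.98, 16.34 and 18.05 in PBS 1 to 4. The log2 fold changes of these RNAs were 0.11 and -0.00, with 95% intervals from -0.96 to 1.19 and from -1.61 to 1.61. These intervals also hold differences of the size seen in the transcripts of the ribosomal proteins. They come from a fit that moderates variances along their trend with the mean. For mt-Rnr1 its SE was 0.49, while the SD between libraries was 0.13 in the NPC group and 0.30 in the PBS group.

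Other genes of mitochondrial protein synthesis were described from lists drawn up with earlier results of these data known. No gene of these lists passed the adjusted threshold. Of 7 further mitoribosomal proteins that carry other symbols, 6 were lower in NPC libraries (median log2 fold change -0.16). Ict1, a peptidyl-tRNA hydrolase built into the large subunit, was at 2.81, 2.85, 2.83 and 2.34 in NPC A to D, against 3.20, 2.99, 3.25 and 3.12 in PBS 1 to 4, with no overlap (log2 fold change -0.43 ± 0.18, adjusted p 0.413 by limma). Gadd45gip1 and Mrp63, also large-subunit proteins, had log2 fold changes of -0.56 and -0.18. Of 25 genes for assembly and RNA modification of the mitoribosome 15 were lower and 10 higher, with a median of -0.03. Among them Mettl15, a methyltransferase of the small-subunit RNA, was higher in every NPC library than in any PBS library (0.74 ± 0.32), and Mrm1 and Ftsj2, ribose methyltransferases of the large-subunit RNA, had log2 fold changes of -0.65 and -1.01. Mettl15 and Ftsj2 were scarce, with as few as 8 reads and 1 read in a library.

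Of 15 mitochondrial translation factors 8 were lower and 7 higher, around a median log2 fold change of -0.00. Tufm, the elongation factor that delivers aminoacyl-tRNA to the ribosome, was at 1.50, 1.55, 1.24 and 0.53 in NPC A to D, against 2.42, 1.72, 1.71 and 2.20 in PBS 1 to 4. The groups did not overlap, at 7 to 84 reads per library (log2 fold change -0.81 ± 0.30, adjusted p 0.396 by limma). Gfm2, which acts in ribosome recycling, and Oxa1l, which inserts new proteins into the inner membrane, had log2 fold changes of 0.38 and 0.16. Of 20 mitochondrial aminoacyl-tRNA synthetases and related enzymes 8 were lower and 12 higher, with a median of 0.11. The 3 with an unadjusted p under 0.05 were all higher (log2 fold changes 0.50 for Nars2, 0.50 for Yars2 and 0.57 for Gatc). In Nars2, the enzyme that charges the tRNA of asparagine, the groups did not overlap. Over all genes, 5.32% were lower and 6.0% higher at that level. The groups lay apart in 3.25% with NPC lower and in 3.53% with NPC higher.

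Of 22 genes for maintenance and transcription of mitochondrial DNA and for processing of its RNA 9 were lower and 13 higher, around a median log2 fold change of 0.06. Mgme1, a nuclease that acts on mitochondrial DNA, was at 2.33, 2.40, 2.28 and 2.2998 in NPC A to D, against 2.98, 2.999, 2.70 and 3.004 in PBS 1 to 4, with no overlap (-0.59 ± 0.18, adjusted p 0.382 by limma). Pnpt1, an RNA-degrading phosphorylase of mitochondria, was at 5.82, 5.45, 5.36 and 5.35 in NPC A to D, against 5.24, 5.02, 5.33 and 5.16 in PBS 1 to 4 (0.30 ± 0.14). Mtpap, the mitochondrial poly(A) polymerase, had a log2 fold change of 0.27. Of 10 regulators of mitochondrial biogenesis 5 were lower and 5 higher, with a median of 0.00. Their smallest p-values belonged to the transcription factors Nfe2l2, Myc and Esrra, at 0.29, 0.30 and -0.31, none under an unadjusted p of 0.05.

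**Figure D4:**
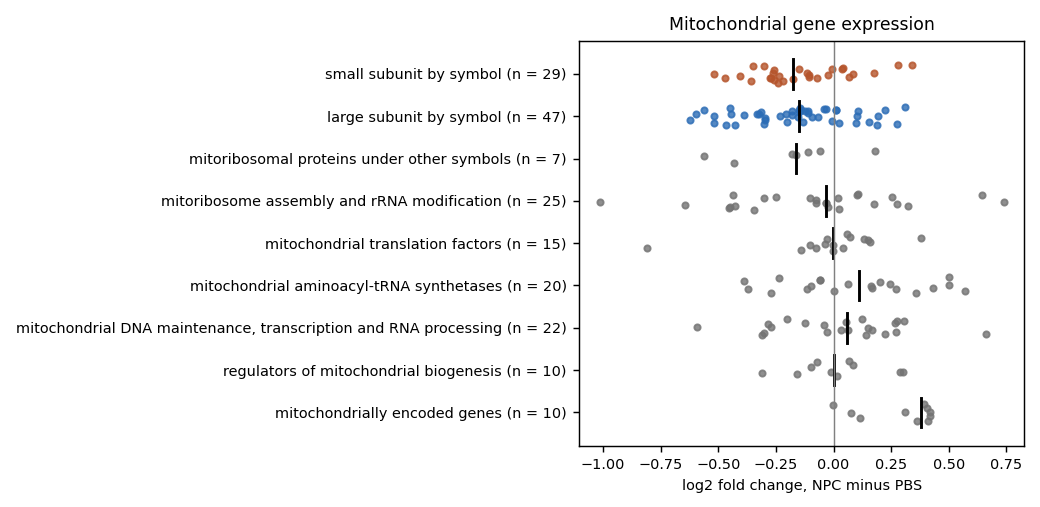
Log2 fold changes (NPC minus PBS) of the mitoribosomal genes by subunit and of the other gene lists of mitochondrial gene expression, 1 point per gene, with a black bar at the median. The medians lie at -0.18 for the small and -0.15 for the large subunit, near 0 for assembly genes, translation factors and regulators, and at 0.38 for the 10 mitochondrially encoded genes.

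GC content moved with the difference between the groups. Over all genes of the table the log2 fold change was lower at higher GC content of the transcript: 61.9% of the genes above the median GC content of 49.5% were lower in NPC libraries, against 33.9% of those at or below it. Mitoribosomal transcripts were near that median, at 49.8%, and short, with a median of 1284 bases, against 2899 for all genes. Above the median GC content 34 of 40 mitoribosomal genes were lower, and their median log2 fold change was -0.20, where all genes had -0.07. At or below it 23 of 36 were lower, with a median of -0.11, where all genes had 0.10. The 7 mitochondrially encoded protein genes, which were higher in NPC libraries, had a median GC content of 37.1%. For the cytosolic ribosomal genes it was 51.8%, and for the nuclear respiratory chain and ATP synthase genes 50.8%. The part of GC content in the differences of these groups was not tested. The 58 mitoribosomal genes no longer than the median transcript of the table had a median of -0.15, as the 76 had. All genes of such length had a median of -0.05, and 55.9% of them were lower. With GC content and transcript length corrected in each library, 55 of the 76 were lower, and the medians were -0.14 for the small and -0.12 for the large subunit. With all libraries thinned to the depth of the shallowest, 51 of the 76 were lower, and the medians were -0.14 for the small and -0.14 for the large subunit. In that setting 6 of the 76 genes had an unadjusted p under 0.05, beside 1086 of all 12256 genes, which is no larger a share.

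**Figure D5:**
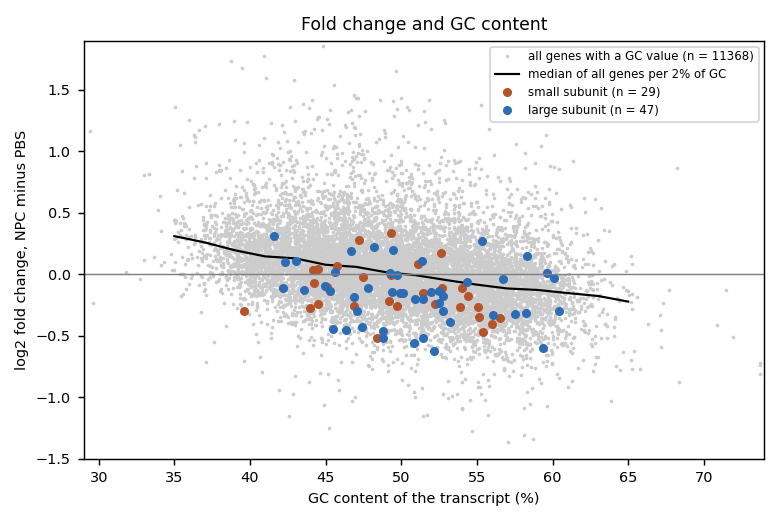
Log2 fold change (NPC minus PBS) against the GC content of the transcript (%) for 11368 genes with a GC value (grey), with the median of all genes per bin of GC content (line) and the mitoribosomal genes by subunit (colours). The line slopes down with GC content, and most mitoribosomal genes lie below it on either side of the median of 49.5%.

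The genes are scattered over the genome, on 17 chromosomes, with the most on chromosome 11 (10 genes) and chromosome 17 (8 genes). Of the 73 protein-coding genes 16 (21.9%) have the start of a protein-coding gene on the other strand within 1000 bases upstream of their own start. Among all protein-coding genes matched the share was 10.8%. A start on the other strand that lies downstream was not counted. Mrpl41 with Pnpla7, Mrps12 with Sars2 and Mrps18c with Helq are such pairs. These 16 had a median log2 fold change of -0.19. Exons of 24 of the 76 genes overlap those of another gene (31.6%, against 29.5% of all genes), and without the strand setting their reads may be shared. Of these 24, 21 were lower in NPC libraries, with a median log2 fold change of -0.21. Of the 52 without such an overlap 36 were lower, with a median of -0.12.

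Markers of other cells that a sort of the inflamed central nervous system could hold were read beside these values. The 6 T cell markers (Cd3e, Cd3d, Cd3g, Cd4, Cd8a and Lck) summed to 65.4 to 87.6 linear normalised units in NPC libraries and 50.03 to 61.0 in PBS libraries, without overlap, and 5 of the 6 were higher in NPC libraries. The 6 microglial markers (Tmem119, P2ry12, Sall1, Siglech, Gpr34 and Sparc) summed to 62.4 to 179 in NPC libraries and 48.5 to 146 in PBS libraries, with all 6 higher on average. Neutrophil markers summed to 41.1 to 126 in NPC libraries and 64.2 to 106 in PBS libraries, with 5 of 6 higher on average. The 3 measured of 4 B cell markers summed to 3.81 to 10.8 in NPC libraries and 3.84 to 6.81 in PBS libraries. For neural cells, 4 of 6 markers were measured, and they summed to 44.7 to 76.3 in NPC libraries and 51.9 to 71.8 in PBS libraries. No marker in the table was at 0 reads in any library. The part of these other cells in the difference of the mitoribosomal genes was not tested.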

How the data were processed

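RNA of sorted cells was amplified and sequenced as single-end reads of 150 bases, per the labels' protocols. Per the submitters' processing notes, the tools of the authors were limma, HTSeq 0.5.3, STAR 2.3.0 and Trimmomatic, and the genome build was mm10. Which annotation, strand setting and filter on scarce genes they used is not given in the sources used here. The deposited values are log2 normalised expression, 1 column per library. The linear values are (whole reads + 0.5) times 1 step per library, and 100% came out whole within a tolerance of 0.01. The offset weighs more in the shallower NPC libraries, where 6.81 to 22.4% of genes had under 10 reads, against 0.579 to 4.49% in PBS libraries.

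All 12256 genes were fitted with limma 3.58.1 in R 4.3.3 on the deposited log2 values (a model with treatment alone, variances moderated along their trend with the mean, two-sided tests, Benjamini-Hochberg adjustment over all genes, threshold 0.05). The method was checked on simulated data, in which the added changes were larger than most of those described here. That check gives no measure of power for such small differences. Intervals are 95% intervals of the fit. All 8 columns were used, with groups from the sample titles. Replicates are separate pools of mice. Coordinates, length and GC content came from 1 transcript per gene of GENCODE vM21, matched by symbol (11368 of 12256 genes, and all 76 mitoribosomal genes). Start-site regions came from RefSeq GRCm38.p6. Plots were drawn with matplotlib 3.10.9.

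The genes, the lists and the tests were chosen with earlier results of these data known. Genes were named by a rule: in each subunit the 6 with the smallest unadjusted p, the 2 with the largest and the 2 with the smallest log2 fold change, the 2 highest and the 1 lowest in level per length, then the 3 Mrps18 paralogues, Mrps30, Mrpl12 and Mrps36, and 3 genes of each other list by smallest p. Alternatives were other variance models and weights, other normalizations, equal depth, filters on low genes, another offset, a GC and length correction, and left-out libraries. Leaving out the pseudogenes, the genes with exon overlap, or single libraries for the mitochondrially encoded genes was added after seeing the data.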

Additional observations from a re-analysis of the deposited data

Results flagged for a closer look

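Each group of 4 libraries was searched for a single library far from the other 3, by Dixon's criterion at the 95% level. Of 90 groups of named genes, 5 (5.56%) held such a library, where chance gives about 1 in 20. Mrps36 was at 1.49 log2 normalised expression in NPC D, against 0.43 to 0.61 in the other NPC libraries, at 3 to 21 reads per library. Mrpl41 was at 3.003 in NPC B, against 3.20 to 3.22 in the other NPC libraries, and all 4 lay below the PBS libraries. Ict1 was at 2.34 in NPC D, against 2.81 to 2.85 in the other NPC libraries. Mrp63 was at 3.28 in PBS 3, against 3.59 to 3.64 in the other PBS libraries. Mgme1 was at 2.70 in PBS 3, against 2.98 to 3.004 in the other PBS libraries.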

How the results depend on the processing

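The count of mitoribosomal genes past an adjusted p of 0.05 was 0 under every alternative run, and 0 at a threshold of 0.1. The medians of both subunits stayed below 0 under all of them. Their shifts from the main fit were within the spread between replicates (SD 0.09 for each). The 13 genes at an unadjusted p under 0.05 became 6 at equal depth and 6 to 15 when 1 library was left out, with 6 without NPC C or PBS 1. Over all 12256 genes there were 1387 in the main fit, 1086 at equal depth and 792 to 1846 with 1 library left out. At equal depth, without NPC C and without PBS 1 the share among the 76 was below that over all genes. With any other single library left out it was above. The 57 genes lower in NPC libraries became 35 of 49 with a mean log2 value of at least 3 and 36 of 52 without exon overlap, where fewer genes were counted. Of the 76 genes, 36 were lower and 9 higher under every alternative. Among 43 named genes, 4 changed sign, and the cause was not tested. The log2 fold change of Mrpl52 was 0.040 at equal depth, 0.086 with GC and length corrected, 0.025 without PBS 1 and NPC A, and -0.16 to 0.02 with 1 library left out. That of Mrps30 was 0.13 at equal depth, 0.047 without PBS 1 and NPC A, and -0.14 to 0.010 with 1 library left out. At equal depth Mrps18b was at -0.30 and Mrpl12 at 0.055. A count test on the recovered reads was not run, since the deposited values are log2 values. No paired analysis was possible because NPC libraries carry letters and PBS libraries numbers, with no label that pairs them. The shallower NPC libraries limit what can be seen in scarce genes such as Mrps36 and Mrps18b.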
